A study of Mus musculus with 4 samples.

Results

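Conjugating enzymes and carboxylesterases are the enzymes with which an enterocyte modifies drugs, plant compounds, bile pigments and hormones that it absorbs. The set was chosen by symbol. It took every gene whose name on the array marks it as an enzyme of the following kinds. Glutathione transferases were Gst of classes a, k, m, o, p and t, and the microsomal Mgst. The others were UDP-glucuronosyltransferases (Ugt), cytosolic sulfotransferases (Sult) and carboxylesterases (Ces). That gave 59 of the 18193 genes with a probe set named for 1 gene alone, namely 19 Gst, 3 Mgst, 11 Ugt, 13 Sult and 13 Ces genes. Each gene was represented by its probe set with the highest mean over the arrays. Of the 59, 43 passed a filter on low values, a mean of at least 0.983 over the 4 arrays, and 16 did not.

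The study compared mice without AP-1B (AP-1B-/-) with heterozygous mice (AP-1B+/-), 2 arrays each, by total RNA of epithelial cells from the small intestine. All mice were C57BL/6J, adult, 10 weeks old, healthy and kept free of specific pathogens. AP-1B is the epithelial clathrin adaptor that sorts proteins to the basolateral membrane, and Ap1m2 encodes its mu1B subunit. No wild-type array was analysed here, the labels do not say how the gene was inactivated, and they leave unsaid whether the 2 arrays of a group came from separate animals. The sex-linked transcripts below differed between the 2 arrays of each group, so these were not of the same single animal, and the spread behind each p-value includes sex. In RNA of a cell mixture, fewer cells of a type and less RNA per cell cannot be told apart.

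Signals are the authors' linear values, read as multiples of the array median, and a level of 1 probe set is not comparable with that of another. Ap1m2 checked the labels first and went against 2 of them. It had a signal of 2.49 and 22.2 on the arrays labelled knockout 1 and knockout 2, against 19.9 and 4.33 on those labelled heterozygous 1 and heterozygous 2. No label names the deleted stretch of Ap1m2, and a probe set that lies outside it would check nothing. Xist, the transcript of female cells, had 0.07 and 60.1 on knockout 1 and knockout 2, against 0.349 and 30.3 on heterozygous 1 and heterozygous 2, so both groups held a male and a female pattern and the replicate number follows sex. Overall brightness also differed, with a 75th percentile of 5.57 and 4.27 on knockout 1 and knockout 2, against 4.13 and 5.54 on heterozygous 1 and heterozygous 2. For that reason the counts of the lowest array, of paired orders and of groups without overlap are also given with quantile normalization, a scaling that makes the distribution of values equal on all arrays. Arrays are named below by their labels, and every direction between genotypes follows the labels, knockout 2 and heterozygous 2 included.

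Each family transfers or removes a different group. Glutathione transferases join glutathione to electrophiles, UDP-glucuronosyltransferases add glucuronic acid, and sulfotransferases add sulfate taken from PAPS. Carboxylesterases cut ester bonds and so activate or inactivate ester drugs and mobilize lipid. In the small intestine these enzymes form a first metabolic barrier and are richest in absorptive enterocytes of the villus.

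Many of the genes lie in tandem arrays of close relatives, and some probe sets have probes that match several related transcripts. Promoters are compared below, and probe and transcript sequences were not compared. In the order of protein-coding genes of the RefSeq table, 8 Ugt2 genes (Ugt2b34, Ugt2b1, Ugt2b35, Ugt2b36, Ugt2b5, Ugt2b37, Ugt2a3 and Ugt2b38) stood next to one another on chromosome 5, followed after 2 other genes by Sult1b1, Sult1d1 and Sult1e1. RefSeq promoters of assembly GRCm38.p6, 250 bases before to 50 after the start, were found for 51 of the 59 genes. Among 61 pairs of Ugt2, Ces1, Ces2 and Gstm promoters aligned within these groups, the most alike were Ugt2b37 and Ugt2b38, with 86.9% identical aligned positions. Ugt2b38 and Ugt2b5 had 84.2% and Ugt2b37 and Ugt2b5 76.2%. These 3 are shown as the most alike of the Ugt2b promoters. Capitals mark the longest stretch that all 3 share, 62 bases, which no promoter of another gene in the table held.
Ugt2b5 (chr5:87140291-87140590, minus strand): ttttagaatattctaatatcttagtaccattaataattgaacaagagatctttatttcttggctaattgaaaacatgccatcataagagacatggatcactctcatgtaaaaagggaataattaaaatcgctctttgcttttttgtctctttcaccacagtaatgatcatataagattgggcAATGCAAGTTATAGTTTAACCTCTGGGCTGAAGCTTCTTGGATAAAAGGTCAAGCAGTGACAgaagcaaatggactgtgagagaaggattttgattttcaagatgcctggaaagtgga
Ugt2b38 (chr5:87424154-87424453, minus strand): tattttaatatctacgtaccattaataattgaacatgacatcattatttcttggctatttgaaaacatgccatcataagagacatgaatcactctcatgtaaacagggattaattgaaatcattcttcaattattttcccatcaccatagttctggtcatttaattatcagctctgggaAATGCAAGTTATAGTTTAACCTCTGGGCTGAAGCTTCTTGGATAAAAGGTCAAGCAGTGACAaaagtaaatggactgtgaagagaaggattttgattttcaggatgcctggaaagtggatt
Ugt2b37 (chr5:87254739-87255038, minus strand): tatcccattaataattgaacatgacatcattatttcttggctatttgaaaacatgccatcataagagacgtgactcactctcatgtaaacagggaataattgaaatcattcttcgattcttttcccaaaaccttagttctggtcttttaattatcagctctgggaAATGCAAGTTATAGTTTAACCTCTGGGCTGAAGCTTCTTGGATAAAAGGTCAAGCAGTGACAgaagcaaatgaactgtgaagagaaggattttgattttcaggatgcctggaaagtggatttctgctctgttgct
Signals of Ugt2b5 and Ugt2b38 were both low on knockout 1 and heterozygous 2, and Ugt2b37 lay below the filter. Ugt2b5 and Ugt2b38 passed the filter and were far lower on knockout 1 than on any other array, while Ugt2b37 was below the array median on 3 arrays and had 1.12 on knockout 2, against 0.013 on knockout 1, 0.029 on heterozygous 1 and 0.011 on heterozygous 2.

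Promoters were also searched on both strands for 4 short elements tied to these enzymes. The antioxidant response core TGACNNNGC, bound by NRF2, was in 4 of 62 promoters of these genes (6.45%), against 12.4% of all 32851 in the table. The xenobiotic response core GCGTG, bound by the aryl hydrocarbon receptor, was in 12 (19.4%), against 32.4%. The GTTAAT element of HNF1 was in 6 (9.68%), against 7.1%, and the CAAAGTCCA element of HNF4 in 1 (1.61%), against 0.475%. The antioxidant core was found in Gsta3, Gstm5, Gstm7 and Mgst1. Mgst1 and Gstm5 are shown, with all matches in capitals, as examples of genes whose lowest array was not knockout 1. Of the others with the core, Gsta3 was lowest on knockout 2 and Gstm7 on knockout 1. Gstm7 had 10.0 and 21.9 in arrays labelled knockout, against 17.2 and 16.3 in arrays labelled heterozygous. Whether the core goes with the order of arrays was not tested. In Mgst1 the antioxidant core lies on the opposite strand and starts at position -56, and in Gstm5 it starts at -42 and overlaps a xenobiotic core.
Mgst1 (chr6:138140277-138140576, plus strand): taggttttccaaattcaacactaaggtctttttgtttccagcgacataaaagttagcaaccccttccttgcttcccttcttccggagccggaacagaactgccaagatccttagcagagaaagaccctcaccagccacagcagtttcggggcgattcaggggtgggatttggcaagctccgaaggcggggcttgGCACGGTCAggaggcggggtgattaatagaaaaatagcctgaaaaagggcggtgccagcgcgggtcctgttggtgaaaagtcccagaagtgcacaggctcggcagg
Gstm5 (chr3:107895604-107895903, plus strand): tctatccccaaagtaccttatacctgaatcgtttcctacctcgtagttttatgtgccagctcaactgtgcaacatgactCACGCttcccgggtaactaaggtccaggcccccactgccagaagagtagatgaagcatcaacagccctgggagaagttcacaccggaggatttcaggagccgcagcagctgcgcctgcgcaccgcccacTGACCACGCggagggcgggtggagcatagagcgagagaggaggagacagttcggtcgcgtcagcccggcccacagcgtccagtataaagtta

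Among the 43 genes past the filter, low values gathered on 1 array. Knockout 1 was the lowest array at 28 of 43, against 20.7% of all 11326 genes past the filter. After quantile normalization it was lowest at 32 of 43, against 34.7% of all. On deposited values knockout 1 had at most 50% of the signal of every other array at 13 of 43, against 4.22% of all. The arrays with low Ap1m2, heterozygous 2 and knockout 1, were both below the other pair at 18 of 43 (9.06% of all), and both above it at 11 of 43 (56.7% of all). With quantile normalization these counts were 28 (24.8% of all) and 5 (27.8% of all). The ratio of the highest to the lowest array was 1.19 for Gstp1 and Gsto1 and 23.2 for Ugt2b5. That of Ugt2b38 is not given, because its value on knockout 1, 0.409, lay below the level of the filter, although its mean passed. The medians of this ratio below include Ugt2b38 and other genes with such a value, among them Ces1d.

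**Figure D1:**
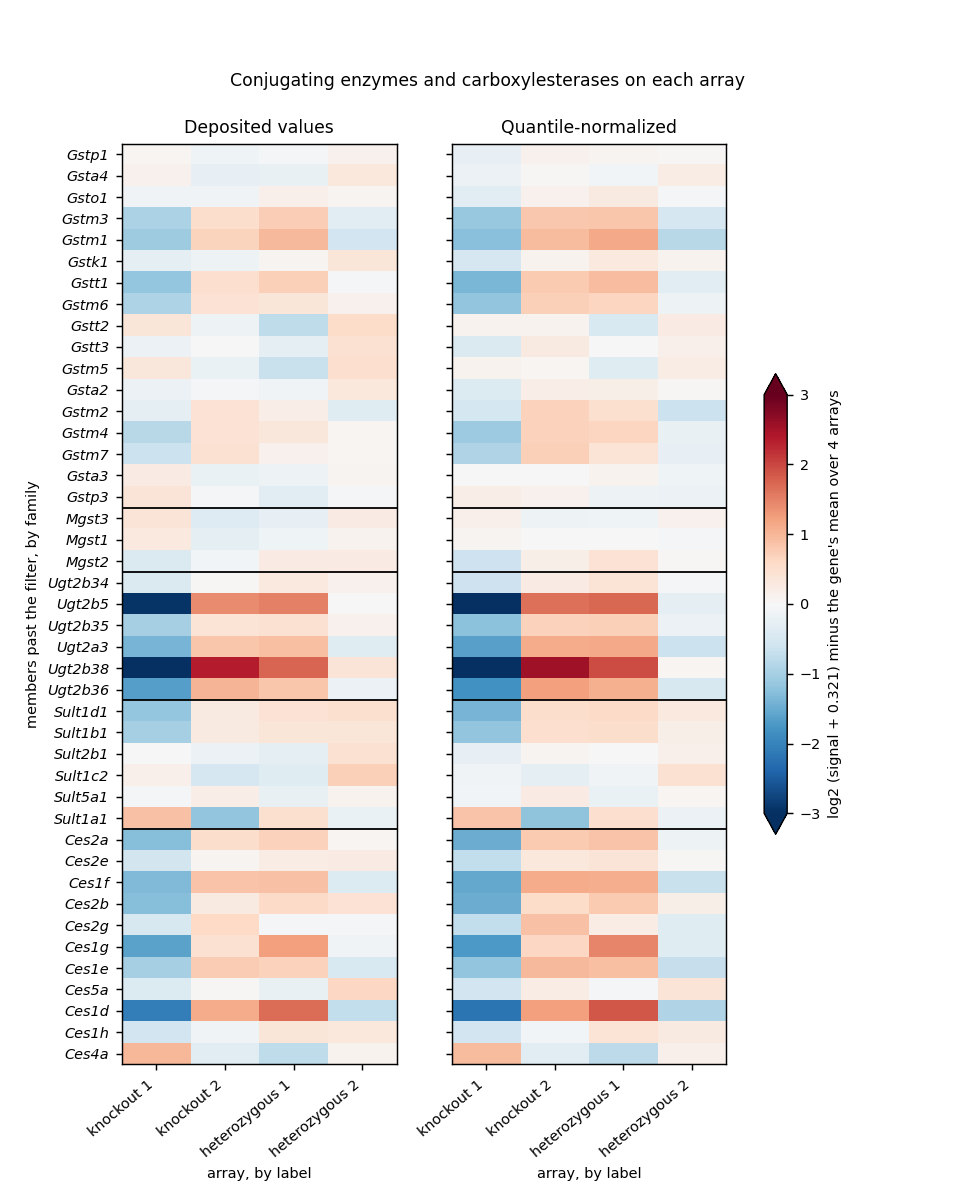
Each row is a gene past the filter, each column an array, and colour gives log2 (signal + 0.321) minus the gene's mean over the 4 arrays, with deposited values on the left and quantile-normalized values on the right and lines between families. Knockout 1 is blue at most Ugt2, Ces1, Ces2 and Gstm genes and red at Sult1a1 and Ces4a. Colours stop at 3 on either side of 0, which Ugt2b38 passes on knockout 1, as does Ugt2b5 on the right.

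The UDP-glucuronosyltransferases had the widest spans between arrays, with a median ratio of highest to lowest of 6.03, against 1.90 for all genes past the filter. All 6 past the filter were lowest on knockout 1 under both scalings. Ugt2b5, a glucuronidating enzyme of the mouse Ugt2b group, had 5.37 and 116 on knockout 1 and knockout 2, against 125 and 43.6 on heterozygous 1 and heterozygous 2. Ugt2b38 had 0.409 and 84.0 on knockout 1 and knockout 2, against 55.0 and 21.4 on heterozygous 1 and heterozygous 2. In both genes knockout 2 lay above heterozygous 2, so the groups overlapped. Ugt2a3, an isoform of gut and liver, had 15.7 and 75 on knockout 1 and knockout 2, against 78.4 and 32.5 on heterozygous 1 and heterozygous 2. Ugt2b36 had 2.81 and 19.9 in arrays labelled knockout, against 17.2 and 8.39 in arrays labelled heterozygous. Ugt2b35 was less spread, with 27.5 and 73.9 in arrays labelled knockout, against 76.5 and 60.1 in arrays labelled heterozygous. Of the 6 genes past the filter, the groups did not overlap at Ugt2b34, the first gene of the cluster, on deposited values. It had 179 and 246 in arrays labelled knockout, against 296 and 263 in arrays labelled heterozygous, from a probe set with probes that match several related transcripts. After quantile normalization it had 160 and 294, against 330 and 240 in the same order, and the groups overlapped. The ratio of heterozygous 1 to knockout 1 was 1.66 for Ugt2b34, 2.79 for Ugt2b35, 6.1 for Ugt2b36, 23.2 for Ugt2b5 and 4.99 for Ugt2a3, so that the ratios did not follow the order of the genes. Ugt2b1, Ugt2b37, Ugt3a1, Ugt3a2 and Ugt8a, which transfers galactose in myelin lipid synthesis, were below the filter with means of 0.169 to 0.726. Among them Ugt2b1 had 0.668 and 0.727 in arrays labelled knockout, against 0.466 and 0.459 in arrays labelled heterozygous, without overlap but all under the array median.

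**Figure D2:**
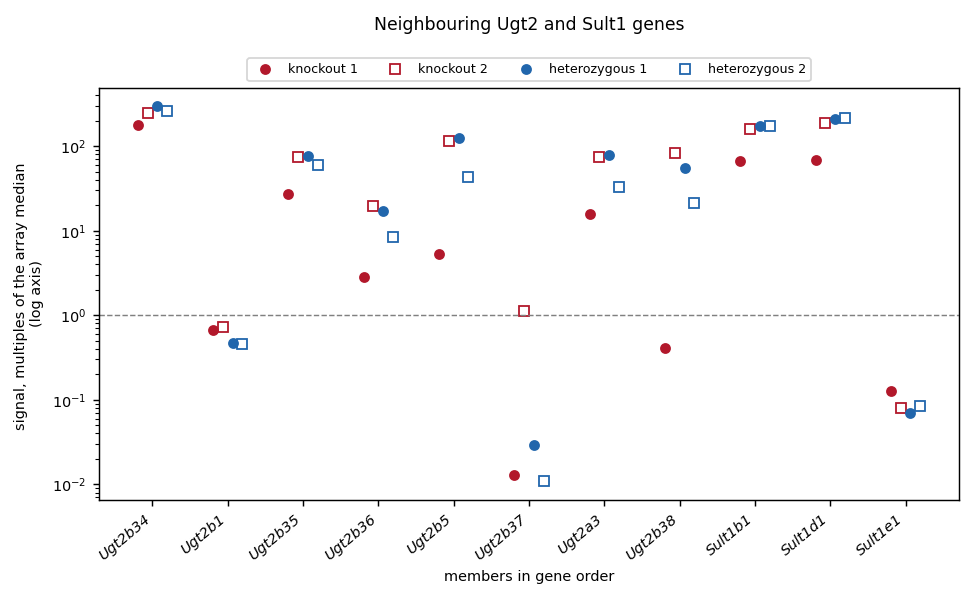
Signals of the 11 neighbouring Ugt2 and Sult1 genes in gene order, as multiples of the array median on a log axis, with red for knockout, blue for heterozygous, filled circles for replicate 1, open squares for replicate 2 and a dashed line at 1. Knockout 1 lies lowest at the 8 genes past the filter, and at Ugt2b38 it lies under the dashed line, at 0.409.

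Carboxylesterases came next, with a median ratio of 3.63. Knockout 1 was lowest at 10 of the 11 past the filter, and at all 5 Ces1 and all 4 Ces2 genes among them. Ces1d, a lipid hydrolase of the endoplasmic reticulum, had 0.506 and 7.30 on knockout 1 and knockout 2, against 10.9 and 1.79 on heterozygous 1 and heterozygous 2. Its 3 probe sets past the filter gave the same order of knockout 1 lowest and heterozygous 1 highest. Ces1g, which hydrolyses lipid esters in liver and gut, had 1.99 and 9.35 in arrays labelled knockout, against 16.2 and 6.16 in arrays labelled heterozygous. Ces1f had 30.5 and 139 in arrays labelled knockout, against 141 and 57.4 in arrays labelled heterozygous, and Ces1e had 3.20 and 11.6, against 10.9 and 4.75. At these 4 genes knockout 2 stood above heterozygous 2, and the groups overlapped.

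Ces1h and 2 of the intestinal Ces2 genes differed in that both knockout arrays were below both heterozygous ones on deposited values. Ces2b had 26.3 and 77.1 in arrays labelled knockout, against 95.5 and 87.4 in arrays labelled heterozygous. Ces2e had 97.5 and 150 in arrays labelled knockout, against 166 and 169 in arrays labelled heterozygous, and Ces1h had 0.789 and 1.22, against 1.80 and 1.73. After quantile normalization the groups overlapped at Ces2b, with 22.5 and 93.8, against 111 and 72.1, and at Ces2e, with 84.3 and 176, against 187 and 146, but not at Ces1h. Ces2a, a triglyceride and ester hydrolase of the gut, had 64.2 and 227 in arrays labelled knockout, against 252 and 164 in arrays labelled heterozygous, with knockout 2 inside the heterozygous range. Ces2g was the Ces2 gene past the filter whose highest array was knockout 2, with 29.3 and 61.6 in arrays labelled knockout, against 39.2 and 39.1 in arrays labelled heterozygous. Ces4a went the other way from its family, with 2.42 and 0.766 in arrays labelled knockout, against 0.485 and 1.17 in arrays labelled heterozygous. It was dim, with a mean of 1.21, and knockout 2 and heterozygous 1 lay under the array median. Ces5a had 3.82 and 5.27 in arrays labelled knockout, against 4.35 and 8.08 in arrays labelled heterozygous, and Ces1c and Ces2f were below the filter.

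Sulfotransferases, with a median ratio of 2.50, differed among themselves. Sult1d1 and Sult1b1, neighbours on chromosome 5 that sulfate catechols, phenols and thyroid hormone, were low on knockout 1 alone. Sult1d1 had 69.0 and 189 in arrays labelled knockout, against 209 and 216 in arrays labelled heterozygous. Sult1b1 had 66.9 and 162 in arrays labelled knockout, against 173 and 174 in arrays labelled heterozygous. Knockout 2 lay just under both heterozygous arrays on deposited values in both genes. After quantile normalization Sult1b1 had 58.1 and 188 in arrays labelled knockout, against 192 and 150 in arrays labelled heterozygous, and Sult1d1 had 59.6 and 225, against 233 and 193, so that the groups overlapped.

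Sult2b1 and Sult1c2 were, like Sult1d1 and Sult1b1, highest on heterozygous 2 on deposited values. Their lowest arrays were heterozygous 1 and knockout 2, in that order, and not knockout 1. Sult2b1, the cholesterol sulfotransferase of epithelia, had 41.4 and 36.5 in arrays labelled knockout, against 33.7 and 56.6 in arrays labelled heterozygous. Sult1c2 had 11.1 and 7.01 in arrays labelled knockout, against 7.70 and 16.8 in arrays labelled heterozygous. Sult5a1 varied little, with 1.55 and 1.92 in arrays labelled knockout, against 1.35 and 1.77 in arrays labelled heterozygous. Sult1a1, the phenol sulfotransferase, had 1.87 and 0.199 in arrays labelled knockout, against 1.34 and 0.715 in arrays labelled heterozygous, with knockout 2 and heterozygous 2 under the array median. The remaining 7, Sult1c1, Sult1e1 (the estrogen sulfotransferase), Sult2a2, Sult2a8, Sult3a1, Sult4a1 and Sult6b1, had means of 0.0902 to 0.379 and lay below the filter. Sult6b1 had 0.41 and 0.325 in arrays labelled knockout, against 0.049 and 0.044 in arrays labelled heterozygous, from probes that can cross-hybridize, all under the array median.

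Glutathione transferases had a median ratio of 1.76 and parted by class. In the mu class 5 of 7 genes were lowest on knockout 1. Gstm1 had 55.9 and 186 on knockout 1 and knockout 2, against 230 and 78.1 on heterozygous 1 and heterozygous 2, and its 4 probe sets past the filter put heterozygous 2 and knockout 1 below the other pair. Gstm3 had 121 and 338 in arrays labelled knockout, against 391 and 187 in arrays labelled heterozygous, from a probe set with shared probes, and its other probe set had 24.0 and 156, against 148 and 49.7. Gstm1, Gstm3, Gstm4, Gstm6 and Gstm7 were lowest on knockout 1. Gstm2 was lowest on heterozygous 2, with 16.4 and 26.7 in arrays labelled knockout, against 22.9 and 15.2 in arrays labelled heterozygous. Gstm5, at the end of the same gene array, was the 1 mu gene with the opposite order, with 25.7 and 17.5 in arrays labelled knockout, against 12.5 and 28.8 in arrays labelled heterozygous.

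The theta class held both orders side by side. Gstt1 had 25 and 80.4 in arrays labelled knockout, against 92.2 and 53.5 in arrays labelled heterozygous. Gstt2, in the same array of theta genes on chromosome 10, had 35.8 and 24.7 in arrays labelled knockout, against 16.3 and 40.7 in arrays labelled heterozygous. Gstt3 had 21.7 and 24.8 in arrays labelled knockout, against 19.9 and 33.7 in arrays labelled heterozygous. Gstt2 and Gstm5 thus stood high where Ap1m2 was low, an order found on deposited values at 56.7% of all genes past the filter.

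Alpha, pi, omega and kappa genes past the filter had ratios of 1.19 to 1.70. Gstp1, the pi enzyme, had 348 and 305 in arrays labelled knockout, against 318 and 363 in arrays labelled heterozygous. Gsto1, of the omega class, had 252 and 253 in arrays labelled knockout, against 301 and 289 in arrays labelled heterozygous, so its groups did not overlap on deposited values, but after quantile normalization they did, with 220 and 305, against 335 and 272. Gsta4, which detoxifies lipid peroxidation aldehydes, had 344 and 266 in arrays labelled knockout, against 272 and 395 in arrays labelled heterozygous. Gsta2 had 18.1 and 19.5 in arrays labelled knockout, against 18.9 and 25.6 in arrays labelled heterozygous. Gsta3 had 7.75 and 5.62 in arrays labelled knockout, against 5.84 and 6.92 in arrays labelled heterozygous, and Gstp3 had 5.59 and 4.01, against 3.29 and 4.07. Gstk1, the kappa enzyme of mitochondria and peroxisomes, had 74.8 and 81.6 in arrays labelled knockout, against 96.0 and 116 in arrays labelled heterozygous, without overlap on deposited values. Gsto2 and Gstt4 were below the filter.

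Microsomal glutathione transferases, membrane enzymes of another protein family, also parted. Mgst1 had 263 and 178 in arrays labelled knockout, against 194 and 230 in arrays labelled heterozygous. Mgst3 had 296 and 174 in arrays labelled knockout, against 190 and 271 in arrays labelled heterozygous. Both were highest on knockout 1 and lowest on knockout 2 on deposited values. Quantile normalization left spans of 204 to 254 for Mgst3 and 206 to 226 for Mgst1. Mgst2, which also makes leukotriene C4, had 89.7 and 114 in arrays labelled knockout, against 143 and 144 in arrays labelled heterozygous, without overlap on deposited values.

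**Figure D3:**
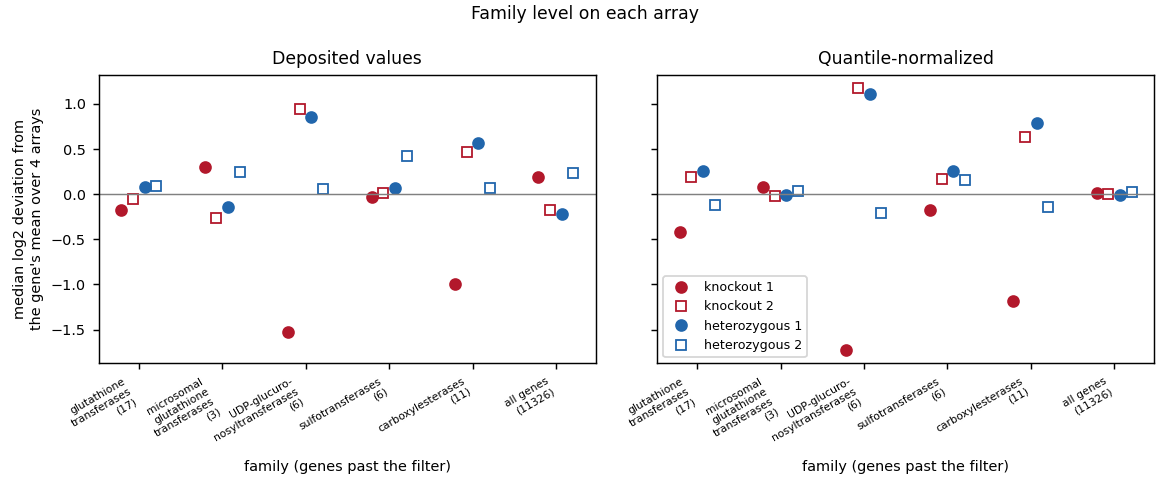
Median over each family's genes past the filter of the log2 deviation from the gene's own mean, on deposited values (left) and after quantile normalization (right), with red for knockout, blue for heterozygous, filled circles for replicate 1 and open squares for replicate 2. On deposited values glucuronosyltransferases stand at -1.53 and 0.94 on knockout 1 and knockout 2, against 0.86 and 0.06 on heterozygous 1 and heterozygous 2, and all genes at 0.19 and -0.18, against -0.22 and 0.23.

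Between the labelled groups no gene of the set passed. By limma on log2 (signal + 0.321), with Benjamini-Hochberg adjustment over 22519 probe sets, 0 of 43 were higher (0.0% of all probe sets) and 0 of 43 lower (0.0% of all) in arrays labelled knockout, with an adjusted p of 0.999868 for each. At an unadjusted p under 0.05 by limma there were 0 of 43 as well, against 0.777% of all genes past the filter. With 2 arrays a group, p = 0.333 is the smallest value that a two-sided exact permutation test could give. The smallest unadjusted p by limma was 0.11, for Ces2b, with a log2 difference of -1.01 and a standard error of 0.59, and for Sult1d1 at -0.89 with 0.52. Ces2b averaged 51.7 ± 36.0 in arrays labelled knockout and 91.5 ± 5.67 in arrays labelled heterozygous (SD, n = 2 each), and Sult1d1 averaged 129 ± 84.8 and 213 ± 4.61 in the same order. In both the spread between the knockout arrays was close to or above the difference of the means. The widest differences, -2.15 for Ugt2b38 and -1.53 for Ugt2b5, had standard errors of 1.51 and 1.07.

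As a description, 44 of all 59 genes had a lower mean log2 value in arrays labelled knockout, against 49.8% of all 18193 genes, and the median difference was -0.33, against 0.00 for all genes. Past the filter 33 of 43 were lower, against 49.5% of all, and with quantile normalization 34 of 43, against 50.0%. The labelled groups did not overlap at 9 of 43 with lower values in arrays labelled knockout (10.9% of all) and at 0 of 43 with higher values (5.51% of all). The 9 were Ces1h, Ces2b, Ces2e, Gstk1, Gsto1, Mgst2, Sult1b1, Sult1d1 and Ugt2b34. With quantile normalization the counts were 1 of 43 lower (11.0% of all), which was Ces1h, and 1 of 43 higher (11.8% of all), which was Gstp3. Thus 1 of the 9 had no overlap under both scalings. Ces1h was dim, with a mean of 1.38 and a value on knockout 1, 0.789, under the array median. Family medians over all members were -0.47 for carboxylesterases (11 of 13 lower), -0.41 for UDP-glucuronosyltransferases (8 of 11), -0.25 for sulfotransferases (10 of 13), -0.22 for glutathione transferases (14 of 19) and 0.00 for microsomal ones (1 of 3). The microsomal median was -0.01 with quantile normalization.

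The median over the set moved about equally far, in opposite directions, without knockout 1 and without knockout 2. For a gene, leaving out either knockout array moves the difference equally far in opposite directions. The median over the 59 genes was -0.05 without knockout 1 and -0.59 without knockout 2, against -0.33 with all arrays. It was -0.23 without heterozygous 1 and -0.3 without heterozygous 2. Without knockout 1 the glucuronosyltransferase median was 0.42 and that of carboxylesterases -0.01, against -0.64 and -1.1 without knockout 2. Leaving out heterozygous 2 and knockout 2, whose Ap1m2 went against the label, left 1 array a group and no test. The medians were then -1.53 for carboxylesterases, -0.73 for glucuronosyltransferases, -0.36 for glutathione transferases, 0.11 for sulfotransferases and 0.44 for microsomal transferases. With knockout 2 alone left out, 3 of 43 genes passed by limma, all lower in the lone knockout array, against 0.817% of all fitted probe sets. They were Ugt2b38 (log2 difference -5.57, adjusted p = 2.17e-09), Ces1d (-2.56, 0.000444) and Ugt2b5 (-3.70, 0.00737), a fit that takes the lone array to vary as the others do.

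**Figure D4:**
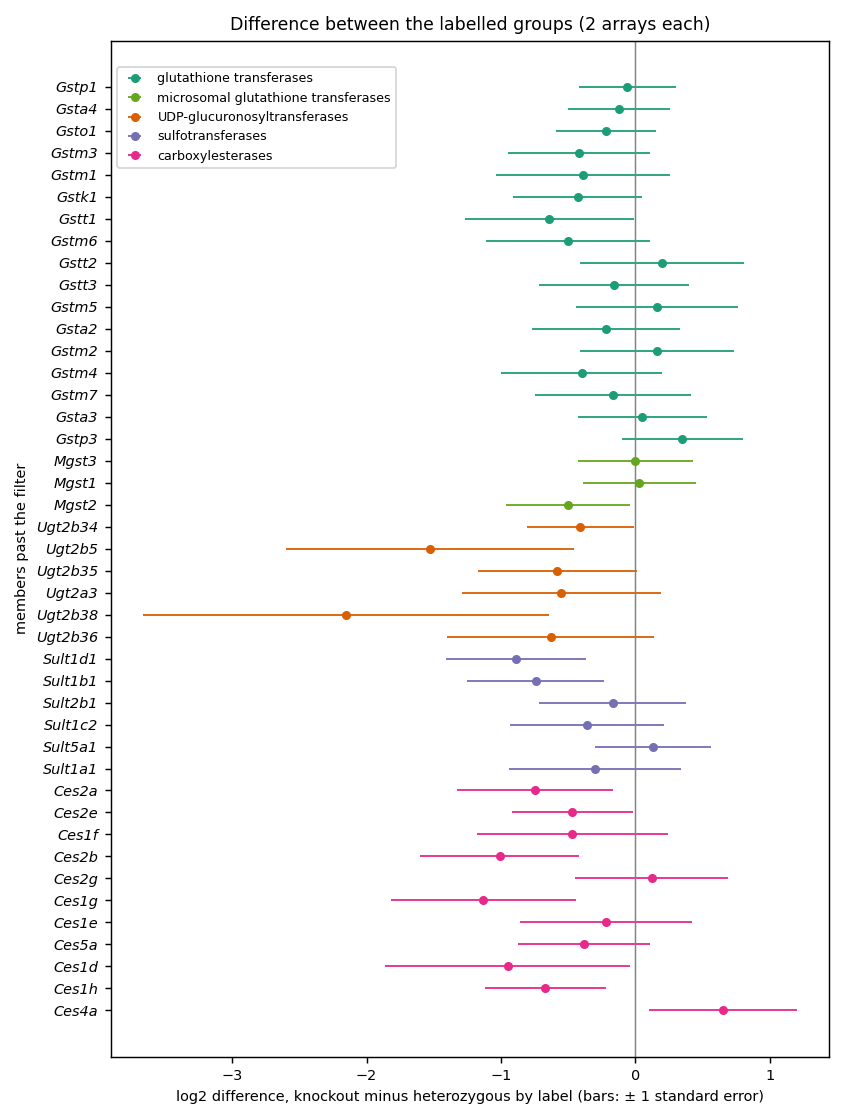
Log2 difference, knockout minus heterozygous by label, for each of the 43 genes past the filter, with bars of 1 standard error from limma and colours for the 5 families. Most points lie left of 0 (33 of 43), and the longest bars belong to Ugt2b38 (1.51) and Ugt2b5 (1.07).

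Of the 9 genes with several probe sets past the filter, 8 had the same sign of difference in all of them. The exception, Gstm7, had log2 differences of -0.17 and 0.01 in its 2 probe sets. Probes shared between relatives or prone to cross-hybridization represent Gstm1, Gstm3, Ugt2b34, Ces1f, Ces5a and Sult6b1, so that their signals may include close relatives.

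Genes of the wider pathway were counted by list, and 35 of 42 measured passed the filter. Of 4 measured genes of UDP-glucuronate supply, 4 were lower in arrays labelled knockout with a median of -0.16, and Ugdh, which makes UDP-glucuronate, had 231 and 217 in arrays labelled knockout, against 250 and 264 in arrays labelled heterozygous. Of 6 sulfate supply genes 4 were lower (median -0.11), and Papss2, a PAPS synthase, had 371 and 358, against 376 and 380 in the same order. Of 6 glutathione supply genes 2 were lower (median 0.12), and of 6 NRF2 targets 5 were lower (median -0.08), with Pgd, of the pentose phosphate pathway, at 292 and 113 in arrays labelled knockout, against 156 and 217 in arrays labelled heterozygous. Among 11 other conjugating genes 6 were lower (median -0.15), and among 9 other hydrolases 9 were (median -0.33). Ephx2, the soluble epoxide hydrolase, had 50.4 and 162 in arrays labelled knockout, against 236 and 125 in arrays labelled heterozygous. Ephx1, the microsomal epoxide hydrolase, is named after its values were seen, and had 4.13 and 69.6 in arrays labelled knockout, against 77.9 and 13.4 in arrays labelled heterozygous, the order of Ugt2b5. By limma 0 of these genes passed the adjusted threshold and 0 had an unadjusted p under 0.05.

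Markers of cell types also differed between arrays. The summed signal of 7 proliferating crypt cell genes was 263 and 81.9 in arrays labelled knockout, against 67.8 and 117 in arrays labelled heterozygous, with all 7 highest on knockout 1. For 9 enterocyte genes it was 3794 and 3575 in arrays labelled knockout, against 4339 and 3915 in arrays labelled heterozygous. After quantile normalization it was 3258 and 4255, against 4367 and 3879 in the same order, so that knockout 1 was then the lowest array. On deposited values 3 of them, Lct, Anpep and Slc5a1, were lowest on knockout 1, and Lct had 3.97 and 237, against 312 and 82.3. The other 6 were lowest on knockout 2. Fabp1 among them had 910 and 582, against 707 and 770 in the same order. For 7 T cell genes the summed signal was 12.2 and 272 in arrays labelled knockout, against 444 and 88.4 in arrays labelled heterozygous. All 7 were lowest on knockout 1. For 6 pancreatic acinar genes it was 2.25 and 72.4, against 2.06 and 14.6 in the same order. The sums were 275 and 247 for B and plasma cells in arrays labelled knockout, against 626 and 245 in arrays labelled heterozygous. For myeloid cells they were 35.4 and 49.7, against 103 and 37.8 in the same order. The B and plasma cell sum came mainly from Igha and Jchain, which with Mzb1 were highest on heterozygous 1. Cd79a and Ms4a1 were highest on knockout 2 and Cd79b on knockout 1. Goblet cell genes summed to 1191 and 999 in arrays labelled knockout, against 1220 and 1317 in arrays labelled heterozygous, and after quantile normalization to 1015 and 1203, against 1331 and 1230. Paneth cell genes summed to 468 and 196, against 637 and 309 on deposited values. Enteroendocrine genes summed to 142 and 165 in arrays labelled knockout, against 207 and 220 in arrays labelled heterozygous, tuft cell genes to 5.24 and 11.5, against 13.5 and 7.97, and stromal genes to 23.1 and 20.6, against 17.4 and 15.6. Hepatocytes, which also carry these enzymes, had Alb at 0.272 and 0.472 in arrays labelled knockout, against 0.770 and 0.506 in arrays labelled heterozygous, and Fgb was at most 0.049, while their summed signal of 27.6 and 9.77, against 16.8 and 20.4, came mainly from Ttr. The part of cell makeup in the values of the conjugating genes was not tested.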

How the data were processed

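Total RNA of small intestinal epithelial cells was measured on 4 one-colour arrays. The deposited values are linear intensities, made by the authors with MAS5 per the submitters' processing notes, with the version not given in the sources used here. Array medians were 0.996 to 0.998, a scaling that no label states. Precision is limited by having 4 arrays. Any pair of arrays had the same value at no more than 0.144% of their probe sets.

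The platform annotation named 34945 probe sets for 1 gene, 932 for several and 9160 for none, and a gene was named only from the first kind. Values were transformed as log2(value + 0.321), the 25th percentile of all values, so fold differences of dim genes are understated. Probe sets with a mean of at least 0.983, the median of means, were fitted (22519 of 45037). Genotypes were tested with lmFit and eBayes (with trend) of limma 3.58.1, run in R 4.3.3, with Benjamini-Hochberg adjustment over all fitted probe sets and a threshold of 0.05. The comparison was tested on simulated data over 22519 probe sets, with a mean of 14.1 false calls. Changes put into these data were recovered in 92.3% at 8-fold, 43.6% at 4-fold and 2.54% at 2-fold. The simulated noise was independent between probe sets and held no differences that many genes share between arrays. These rates may therefore not hold for the measured arrays.

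By rule, genes given array by array were the 5 brightest of each family, the 5 with the smallest p in each direction, and the 5 with the widest and narrowest spans, and other members were given where they complete a family. The members and lists were chosen with earlier results of these data known. Alternatives were other pseudocounts, filters, scalings and variance models, the replicate block, each array left out, and, per gene, the mean over its probe sets. Same-numbered arrays share the pattern of sex-linked transcripts, but no label ties them to a shared animal or batch and their deviations over fitted probe sets correlated at -0.51, so the replicate block was kept as an alternative. All 59 symbols were found in the RefSeq table of GRCm38.p6. Coordinates belong to its promoters, since the build behind the array annotation is not stated.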

Additional observations from a re-analysis of the deposited data

How the results depend on the processing

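Over all fitted probe sets 0 were called higher and 0 lower in arrays labelled knockout, also with both other pseudocounts, no filter, quantile normalization, median centring, no variance trend, robust variances and a threshold of 0.10. With only the brightest 25% of probe sets the count was 0 higher and 1 lower. With 1 array left out the counts were 0 to 56 higher and 0 to 184 lower, the largest without knockout 2 (17 higher and 7 lower without knockout 1), and 0 to 3 lower among the conjugating genes, where 3 came without knockout 2. In such fits the lone array is assumed to vary as the others do. Among the 3, Ugt2b38 and Ces1d lay below the level of the filter on knockout 1. The fit with the replicate block called 0 in each direction and left the median over the 59 genes at -0.33. Crossing the numbers, chosen after seeing the data, also gave 0 calls. Same-numbered arrays share a sex pattern, and the deviations of these arrays correlated at -0.51.

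Family medians of the log2 difference with 1 array left out were -0.33 to 0.32 for microsomal glutathione transferases, -0.27 to 0.03 for sulfotransferases, -0.64 to 0.42 for UDP-glucuronosyltransferases, -1.10 to -0.01 for carboxylesterases, -0.27 to -0.06 for glutathione transferases. The median over the 59 genes was -0.59 to -0.05. Without both heterozygous 2 and knockout 2, added after seeing the data, the medians were 0.44 for microsomal transferases, 0.11 for sulfotransferases and -1.53 for carboxylesterases. With the 10th percentile as pseudocount the sulfotransferase median was -0.45. Signs by setting were followed at 33 genes, those given array by array by rule, and not at the other genes of the set. The sign of Mgst3 turned with quantile normalization (-0.01) and median centring (-0.03), and that of Mgst1 with the mean of its probe sets (-0.09). With 1 array, or both heterozygous 2 and knockout 2, left out the sign turned under at least 1 such setting at 22 genes, whose differences ran -0.16 to 0.13 for Gstp1, -0.38 to 0.34 for Gsta4, -1.68 to 0.32 for Gstm3, -2.03 to 0.48 for Gstm1, -0.38 to 0.64 for Mgst3, -0.25 to 0.44 for Mgst1, -4.46 to 0.65 for Ugt2b5, -1.47 to 0.12 for Ugt2b35, -2.29 to 0.57 for Ugt2a3, -6.25 to 1.28 for Ugt2b38, -0.54 to 0.29 for Sult2b1, -0.91 to 0.51 for Sult1c2, -0.03 to 0.29 for Sult5a1, -1.97 to 0.16 for Ces2a, -2.20 to 0.62 for Ces1f, -0.41 to 0.65 for Ces2g, -0.01 to 1.77 for Ces4a, -0.45 to 1.12 for Gstt2, -0.48 to 0.51 for Gstm2, -0.17 to 0.39 for Gsta3, -1.34 to 0.74 for Sult1a1, -3.76 to 0.65 for Ces1d. The cause of these shifts was not tested, beyond the smaller number of arrays. With 2 arrays a group, differences under about 4-fold were mostly missed in the simulation, and dim genes near the array median have compressed differences.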

Other observations

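Probe sets that match several genes of these families were left out of the set but carried signal. The 8 Ugt1a isoforms, which share exons and include the bilirubin glucuronosyltransferase Ugt1a1, were read by 3 shared probe sets. In them both knockout arrays were below both heterozygous ones on deposited values, an order found at 10.9% of all genes past the filter. All 3 list the same isoforms, so they are not separate results. The first had 327 and 350 in arrays labelled knockout, against 436 and 397 in arrays labelled heterozygous, which is -0.30 ± 0.34 on the log2 scale (standard error; limma adjusted p = 0.999868). The second had 167 and 213 in arrays labelled knockout, against 246 and 245 in arrays labelled heterozygous, and the third had 152 and 200, against 257 and 239. After quantile normalization knockout 2 lay above heterozygous 2 in all 3, with 425 against 384 in the first, so that the groups overlapped. The probe set shared by Gsta1, Gsta2 and Gm3776 had 627 and 453 in arrays labelled knockout, against 512 and 575 in arrays labelled heterozygous. That of Ces3a and Ces3b had 0.421 and 1.51 in arrays labelled knockout, against 1.48 and 2.27 in arrays labelled heterozygous.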
